A study of Rattus norvegicus with 9 samples.

Results

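Antioxidant defence was followed through 7 genes in the kidneys of SD (Sprague-Dawley, outbred) rats: Nfe2l2, Hmox1, Nqo1, Gclc, Sod1, Sod2 and Cat. They were chosen by Ensembl gene identifier as the transcription factor Nrf2, a few of its textbook targets and the main enzymes that remove superoxide and hydrogen peroxide, and they are 7 of the 22637 genes in the table of counts. All 7 passed the filter on low counts, which left 17584 genes. The symbols follow the list that defined the genes, because no table used here pairs rat Ensembl identifiers with symbols. Polyadenylated RNA was sequenced in 9 kidney libraries: 3 labelled control, 3 labelled as a chronic kidney disease (CKD) model, and 3 labelled as treated with mesenchymal stem cells (MSC, stromal cells used in cell therapy). The kidneys of a group, as named below, are the libraries so labelled. The study's title speaks of infusion into the renal parenchyma under ultrasound guidance in rats with the disease model. Age, sex, the way disease was produced, the source and dose of the cells, any sham infusion of the other groups and the time of sampling are not given in the sources used here. Neither do the labels say that replicates are separate animals, so a p-value measures the spread between these libraries, which may be technical.

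Nrf2, the protein made from Nfe2l2, is a transcription factor that the adaptor Keap1 normally marks for degradation. Oxidants and electrophiles modify Keap1, Nrf2 then accumulates, pairs with small Maf proteins and binds antioxidant response elements near genes of glutathione synthesis, quinone reduction and haem breakdown. Because this control acts on the protein, the Nfe2l2 transcript level is no direct measure of Nrf2 activity. The kidney depends on such enzymes because its proximal tubule is rich in mitochondria and peroxisomes, the compartments of Sod2 and Cat.

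Library totals ran from 47633344 to 58546847 counts, and the MSC libraries were the shallowest. Counts of the 7 genes ranged from 135 (Hmox1 in control replicate 3) to 537367 (Gclc in control replicate 3), so counting error (1 over the square root of the count, if counts are independent reads) was at most 8.61% of any single value. Levels are given as CPM (each count over its library's total, times a constant) with edgeR's TMM factors, which ran from 0.899 to 1.11. CPM is not corrected for gene length, so the levels of different genes are not compared. These are bulk samples, in which fewer cells of a type and less RNA per cell cannot be told apart. Kidney and leukocyte markers could not be looked up without symbols, so the tissue label and the cell make-up of the samples were not checked.

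Sod2 (ENSRNOG00000019048, the manganese superoxide dismutase of the mitochondrial matrix) was the 1 gene of the 7 that passed the test in any comparison, with a fall in MSC against control kidneys, where 15.4% of all tested genes were called lower. Its level was 244, 251 and 268 CPM in control kidneys, 232, 177 and 203 CPM in CKD kidneys and 148, 148 and 189 CPM in MSC kidneys (replicates 1, 2 and 3). Every control value lay above every CKD and every MSC value, whereas MSC replicate 3 lay within the CKD values. Of all tested genes, 5.83% lay wholly lower in CKD than in control kidneys and 25.5% in MSC than in control kidneys. Group means of Sod2 were 254 ± 12.1, 204 ± 27.5 and 162 ± 23.5 CPM (SD, n = 3 each). MSC kidneys had 1.57-fold less Sod2 RNA than controls, a log2 fold of -0.65 ± 0.14 (SE; 95% interval -0.97 to -0.34; edgeR quasi-likelihood test, adjusted p = 0.0108). The call was kept under all 17 alternatives run for it, with log2 folds from -0.78 to -0.57 and edgeR, DESeq2 or limma-voom adjusted p-values from 0.000258 to 0.0455.

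The 2 shorter steps for Sod2 were not past the threshold. CKD kidneys were lower than controls by a log2 fold of -0.32 ± 0.14 (95% interval -0.63 to -0.00055; edgeR adjusted p = 0.756). MSC kidneys differed from CKD kidneys by -0.34 ± 0.14 (95% interval -0.65 to -0.02; edgeR adjusted p = 0.111). As an unscaled share of all counts, Sod2 took 0.0160%, 0.0148% and 0.0189% in MSC and 0.0227%, 0.0197% and 0.0193% in CKD libraries. Without TMM scaling these groups thus did not overlap. The share of all genes without overlap was computed only with TMM scaling, where 21.2% lay wholly lower in MSC than in CKD libraries. Without MSC replicate 3, the MSC library with the most Sod2, the difference from CKD was -0.46 (edgeR adjusted p = 0.0472), and over all alternatives its adjusted p ran from 0.0472 to 0.309. CKD replicate 2 had the lowest Sod2 CPM of its group, and its TMM factor of 1.11 stood apart from those of the other CKD libraries (0.977 and 0.950). Without CKD replicate 2 the log2 fold of Sod2 was -0.22 in CKD against control (edgeR adjusted p = 1.00) and -0.43 from CKD to MSC (edgeR adjusted p = 0.0570). These comparisons share libraries and are given side by side.

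**Figure D1:**
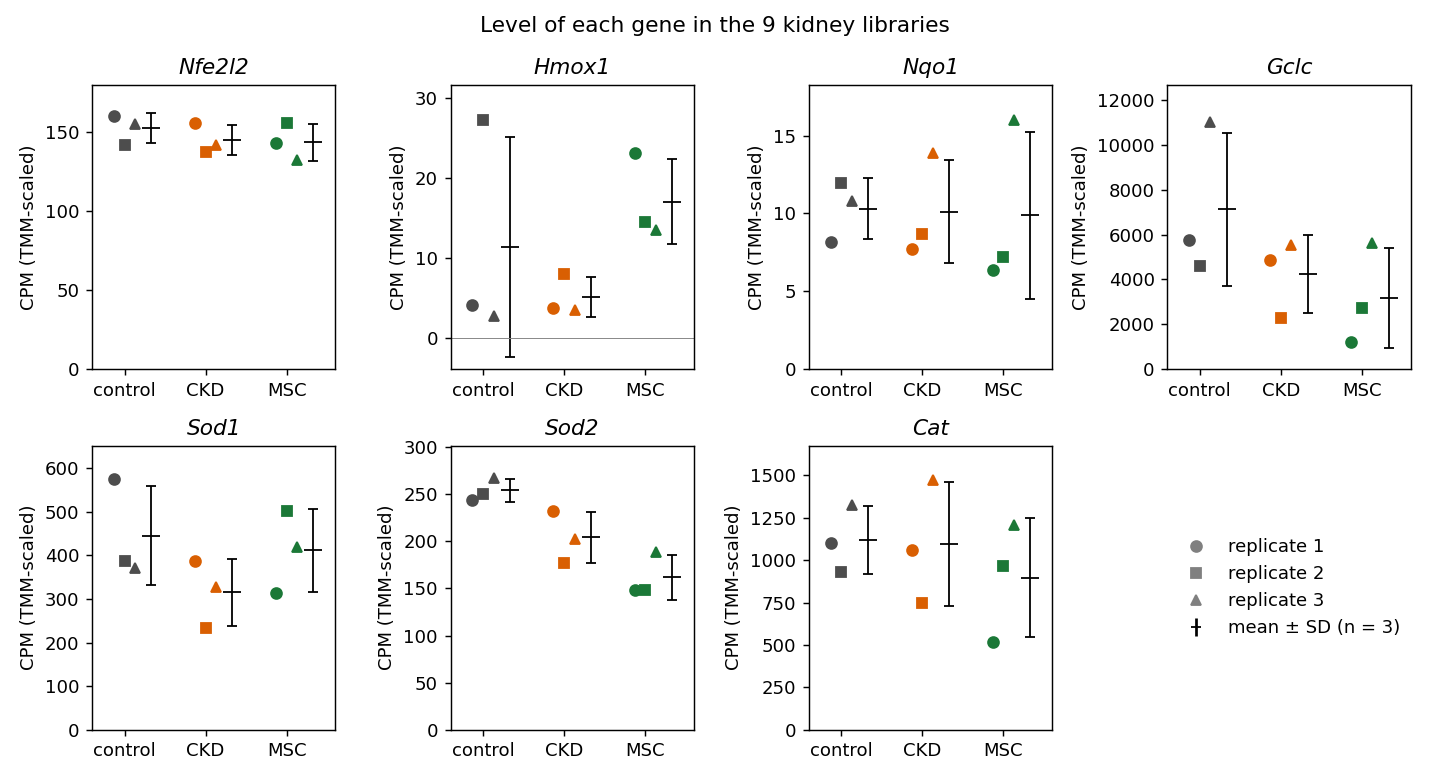
Level of each of the 7 genes in the 9 libraries, in TMM-scaled CPM on a linear axis that includes 0. Symbols mark replicates and bars the mean ± SD of 3 libraries. Sod2 lies between 244 and 268 CPM in controls and between 148 and 189 CPM in MSC kidneys. The 3 groups overlap for Nfe2l2, Nqo1, Gclc, Sod1 and Cat.

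The sequence before the Sod2 start site is shown because Sod2 is the gene that changed, with that of Nqo1, the standard reporter of Nrf2 activity, beside it. Both are 250 bases, 5′ to 3′, ending at the last base before the annotated start, from RefSeq in build GRCr8 (the counts were made on Rnor_6.0). Sod2 lies on the minus strand at chr1:50050169-50050418 and Nqo1 on the minus strand at chr19:52220268-52220517. Capitals mark a match to the antioxidant response element core TGACNNNGC in Sod2, which reads on the opposite strand, and the TATA box core TATAAA in Nqo1.
Sod2: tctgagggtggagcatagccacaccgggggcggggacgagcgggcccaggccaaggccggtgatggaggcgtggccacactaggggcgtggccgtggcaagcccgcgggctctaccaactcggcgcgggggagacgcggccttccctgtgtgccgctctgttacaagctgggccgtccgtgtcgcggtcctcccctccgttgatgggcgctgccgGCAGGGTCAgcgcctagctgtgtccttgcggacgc
Nqo1: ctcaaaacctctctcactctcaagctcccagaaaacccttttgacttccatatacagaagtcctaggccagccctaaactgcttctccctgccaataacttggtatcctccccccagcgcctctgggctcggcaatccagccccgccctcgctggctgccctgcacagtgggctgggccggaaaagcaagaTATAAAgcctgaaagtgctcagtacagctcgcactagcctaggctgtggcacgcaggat

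RefSeq windows of 250 bases before to 50 bases after the start were matched by symbol for 6 of the 7 genes, all but Hmox1. On either strand, TGACNNNGC occurred in the windows of Sod2 (its first base 35 bases before the start) and Nfe2l2 (beginning 38 bases after it), and in none of the windows of Nqo1, Gclc, Sod1 and Cat. Of all 33469 rat windows of this length 12.1% held it. TATAAA occurred in the windows of Nqo1, Gclc and Sod1 (14.2% of all windows), and the GC box GGGCGG in all of the 6 but Cat (33.1% of all windows), 6 times in Nfe2l2, where matches may overlap each other. The Sod2 window was 72.0% G and C and that of Nqo1 56.3%, against a median of 51.7%. A match describes letters only, and elements outside this window were not searched.

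Sod1 (ENSRNOG00000002115) encodes the copper and zinc superoxide dismutase of the cytosol. Its levels were 576, 388 and 370 CPM in control, 386, 233 and 327 CPM in CKD and 314, 503 and 419 CPM in MSC kidneys. All 3 groups overlapped. Its log2 fold was -0.50 ± 0.26 in CKD against control (edgeR adjusted p = 0.756), 0.39 ± 0.26 from CKD to MSC (adjusted p = 0.291) and -0.11 ± 0.25 from control to MSC (adjusted p = 0.764), so none of its differences passed the test.

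The balance of Sod2 and Sod1 RNA was read from the count ratio within each library, which no scaling can alter. Protein and enzyme activity were not measured here. The log2 ratio of Sod2 to Sod1 was -1.24, -0.63 and -0.47 in control, -0.73, -0.40 and -0.69 in CKD and -1.08, -1.76 and -1.15 in MSC libraries. Every MSC library lay below every CKD library, but control replicate 1 lay among the MSC values. The MSC mean was 0.73 below the CKD mean on the log2 scale (-1.33 ± 0.37 against -0.61 ± 0.18, SD, n = 3 each), a difference of -0.73, and with single libraries left out it ran from -0.85 to -0.51. Against Nfe2l2, the log2 ratio of Sod2 was 0.61, 0.82 and 0.79 in control, 0.58, 0.37 and 0.52 in CKD and 0.05, -0.07 and 0.52 in MSC libraries. All controls thus stood above all CKD and all MSC libraries on this scale too. Of all ratios to Nfe2l2, only that of Hmox1 did not overlap between MSC and CKD libraries, and it was higher in MSC. The share of gene pairs without overlap was not computed. For single genes, 22.1% of all tested genes lay wholly higher and 21.2% wholly lower in MSC than in CKD libraries. The share wholly lower was 5.83% in CKD against control and 25.5% in MSC against control. No test was applied to the ratios, which were described only.

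**Figure D2:**
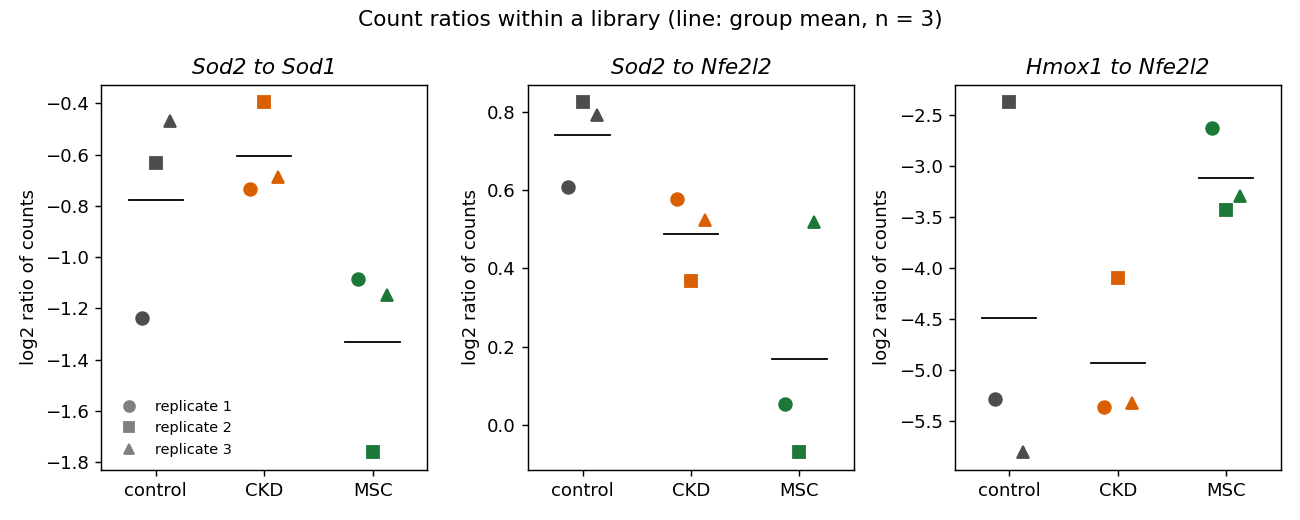
Log2 ratios of counts within each library, for Sod2 to Sod1, Sod2 to Nfe2l2 and Hmox1 to Nfe2l2. Points are libraries and lines group means (n = 3). The ratio of Sod2 to Sod1 is at most -1.08 in MSC and at least -0.73 in CKD libraries.

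Cat (ENSRNOG00000008364), the peroxisomal catalase that splits hydrogen peroxide, was uneven within groups. It stood at 1101, 928 and 1327 CPM in control, 1059, 749 and 1475 CPM in CKD and 518, 968 and 1206 CPM in MSC kidneys. The lowest value was that of MSC replicate 1, and the other MSC libraries lay within the range of the other groups. The log2 folds were -0.03 ± 0.34 in CKD against control (95% interval -0.79 to 0.73), -0.29 ± 0.34 from CKD to MSC (-1.05 to 0.47) and -0.32 ± 0.34 from control to MSC (-1.08 to 0.44), with edgeR adjusted p-values of 0.987, 0.557 and 0.490. On the linear scale the first interval holds folds from 0.578 to 1.66 in CKD against control kidneys, so similar levels are not shown.

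Nfe2l2 (ENSRNOG00000001548) itself was the steadiest of the 7 genes apart from Sod2 in controls. It measured 160, 142 and 155 CPM in control, 156, 137 and 141 CPM in CKD and 143, 155 and 132 CPM in MSC kidneys. The group means of 152 ± 9.54, 145 ± 9.64 and 143 ± 11.8 CPM (SD, n = 3 each) lay within the spread of the libraries. Log2 folds were -0.07 ± 0.10 in CKD against control, -0.01 ± 0.10 from CKD to MSC and -0.09 ± 0.10 from control to MSC (edgeR adjusted p of 0.900, 0.930 and 0.547). The 95% intervals of all 3 linear folds lay between 0.80 and 1.17. Only 16.9%, 14.3% and 22.5% of all tested genes varied less within control, CKD and MSC kidneys than Nfe2l2 did (coefficients of variation of 6.26%, 6.65% and 8.26%).

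Hmox1 (ENSRNOG00000014117) encodes haem oxygenase 1, the inducible enzyme that opens the haem ring, and had the largest fitted fold of the 7 genes between MSC and CKD kidneys. It read 23.2, 14.5 and 13.5 CPM in MSC kidneys and 3.79, 8.05 and 3.53 CPM in CKD kidneys, without overlap. Of all tested genes, 22.1% lay wholly higher in MSC than in CKD kidneys. In control kidneys Hmox1 read 4.12, 27.3 and 2.77 CPM. Control replicate 2 thus held more than any MSC kidney, and the other 2 controls lay within or below the CKD values. The MSC mean was 17.0 ± 5.33 CPM, the CKD mean 5.12 ± 2.54 CPM and the control mean 11.4 ± 13.8 CPM (SD, n = 3 each).

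The 3.32-fold higher mean of MSC than CKD kidneys did not pass the test, with a log2 fold of 1.73 ± 0.78 (95% interval -0.04 to 3.50; edgeR adjusted p = 0.138). Control replicate 2 enters this value through the spread that all groups share. Without it the log2 fold was 1.73 with an adjusted p of 0.0225 by edgeR, and in a fit of the 6 MSC and CKD libraries alone it was 1.72 with an adjusted p of 0.0326. Without CKD replicate 3 the adjusted p was 0.306, and 0.0225 and 0.306 were the lowest and highest over the alternatives that gave one. Without CKD replicate 2, the CKD library with the most Hmox1, the log2 fold was 2.22 (edgeR adjusted p = 0.109). Against control the MSC fold was 0.58 ± 0.76 (edgeR adjusted p = 0.584) with all libraries and 2.30 (adjusted p = 0.0199) without control replicate 2, in a range of adjusted p from 0.0199 to 0.911. CKD against control was -1.15 ± 0.78 (adjusted p = 0.804) and turned to 0.57 (adjusted p = 0.782) without that library. DESeq2 gave no p for Hmox1 in any of the 3 comparisons.

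**Figure D3:**
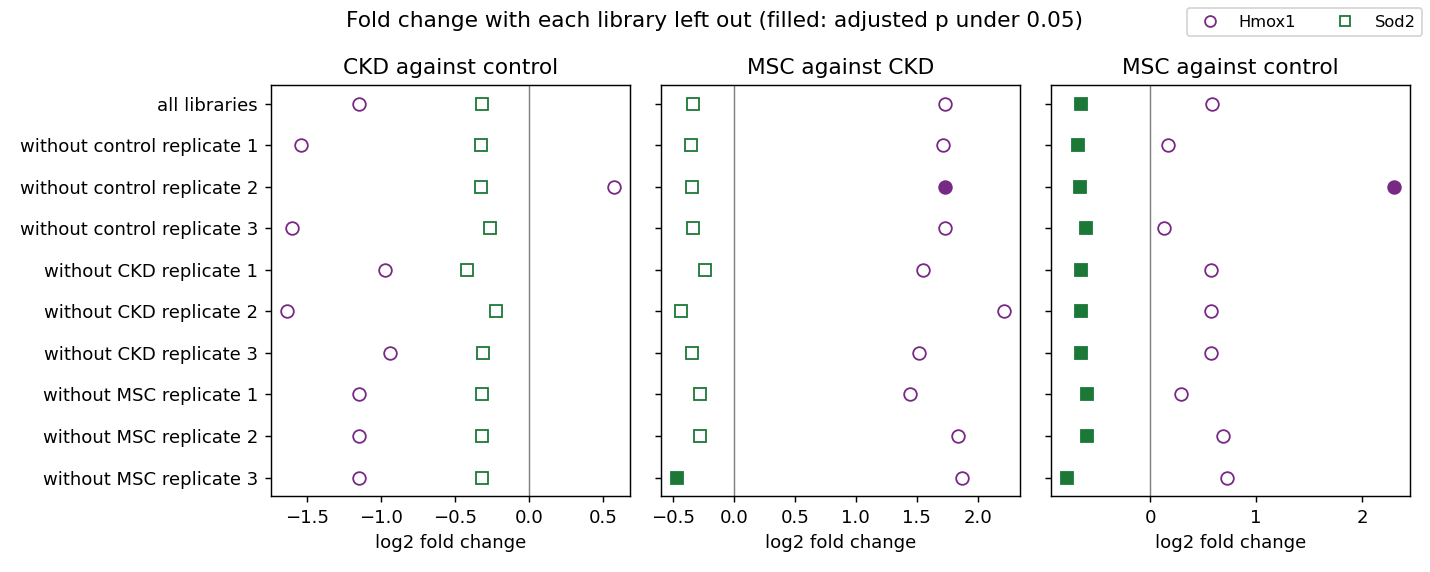
Log2 fold of Hmox1 (circles) and Sod2 (squares) in the 3 comparisons with all libraries and with each library left out. Filled symbols have an edgeR adjusted p under 0.05. Sod2 stays filled in each row of MSC against control, and Hmox1 moves from 0.58 to 2.30 there without control replicate 2.

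Nqo1 (ENSRNOG00000012772), the quinone reductase that is widely read as an Nrf2 target, showed no difference that passed the test. It read 8.15, 12.0 and 10.8 CPM in control, 7.73, 8.67 and 13.9 CPM in CKD and 6.38, 7.20 and 16.0 CPM in MSC kidneys. The lowest and the highest of all 9 values were both MSC kidneys, replicates 1 and 3. Log2 folds lay between -0.06 and -0.03 in the 3 comparisons, each ± 0.37 (edgeR adjusted p of 0.914 or more). Hmox1 and Nqo1 therefore had unlike group means: in MSC against CKD their log2 folds were 1.73 and -0.03, a contrast that was not tested.

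Gclc (ENSRNOG00000006302) is the catalytic subunit of glutamate-cysteine ligase, which makes the first step of glutathione synthesis. The row held 5776, 4606 and 11020 CPM in control, 4867, 2264 and 5552 CPM in CKD and 1199, 2718 and 5605 CPM in MSC kidneys. The lowest 2 of the 3 MSC values lay below all controls and the third within them. The means were 7135 ± 3417 CPM in control, 4228 ± 1735 CPM in CKD and 3174 ± 2238 CPM in MSC kidneys (SD, n = 3 each), and no comparison passed the test. Log2 folds were -0.76 ± 0.57 in CKD against control, -0.41 ± 0.57 from CKD to MSC and -1.17 ± 0.58 from control to MSC (edgeR adjusted p of 0.822, 0.621 and 0.147). From CKD to MSC the fold was -1.11 without MSC replicate 3 (edgeR adjusted p = 0.177) and -0.02 without MSC replicate 1 (edgeR adjusted p = 0.981). Without MSC replicate 3 the fold from control was -1.87 (edgeR adjusted p = 0.0403; the alternatives gave 0.0403 to 0.425). By counts, which favour long transcripts, this row ranked between 6 and 45 among all rows and took 0.129% to 0.991% of a library. Whether reads of another gene contribute to the row, and the pairing of this identifier with Gclc, were not tested.

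**Figure D4:**
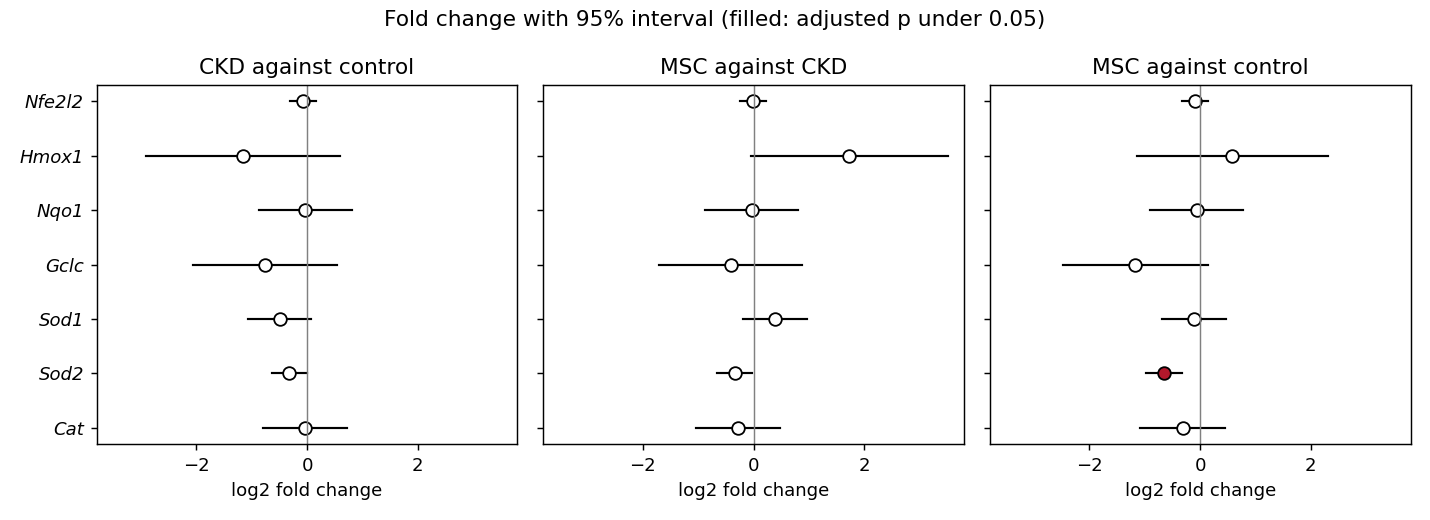
Log2 fold change of each gene with its 95% interval in the 3 comparisons, from edgeR with all 9 libraries. Sod2 in MSC against control, at -0.65, is the only filled point (adjusted p under 0.05), and the intervals of Hmox1 and Gclc are the widest.

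Counted over the 7 genes, CKD against control gave 0 calls, against 0% of all tested genes called higher and 0% called lower (edgeR quasi-likelihood test). At an unadjusted edgeR p under 0.05 there was 1 of 7, Sod2, against 6.55% of all tested genes. Limma-voom called 0 of 7, against 0% of all tested genes. DESeq2 called 0 of the 6 genes for which it gave an adjusted p (all but Hmox1), against 0.331% of all genes. All 7 fitted log2 folds were negative, with a median of -0.32 against 0.00 over all tested genes, but those of Nqo1 and Cat were positive with library size as the only scaling, and that of Hmox1 without control replicate 2. The CKD values lay wholly below the controls for 1 gene, Sod2, and wholly above for 0, where 5.83% and 5.96% of all genes did so.

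MSC against CKD also gave 0 of 7 calls by edgeR and by limma-voom and 0 of the 6 genes other than Hmox1 by DESeq2. Over all tested genes, edgeR called 11.4% higher and 11.4% lower. Limma-voom called 14.4% higher and 12.1% lower, and DESeq2 15.4% and 13.4% of the genes with an adjusted p. At an unadjusted edgeR p under 0.05 there was again 1 of 7, Sod2, where 38.4% of all tested genes were. The MSC values lay wholly above the CKD values for 1 gene, Hmox1 (22.1% of all genes), and wholly below for 0 (21.2%). The median log2 fold was -0.03 over the 7 genes and 0.00 over all genes, and the median absolute log2 fold 0.34 against 0.42.

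MSC against control gave 1 of 7 calls, Sod2, in the lower direction, where 15.4% of all tested genes were called, and 0 in the higher direction, where 16.9% were. Non-overlap was seen for 1 of 7 lower (25.5% of all genes) and for 0 higher (27.2%). The median log2 fold was -0.11 over the 7 genes and -0.01 over all genes. The share of all genes called lower was itself 9.46%, 10.3% or 8.23% when control replicate 1, 2 or 3 was left out. It was 8.62%, 7.62% or 14.8% when MSC replicate 1, 2 or 3 was. Without single CKD libraries it ran from 12.9% to 15.3%. Sod2 was called each time, and nothing particular to the 7 genes is read from 1 call.

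Libraries of a group differed from each other in a repeated order, which was noticed after the values were seen. In each of the 3 groups the library with the most Hmox1 had the least Gclc and the least Cat: control replicate 2, CKD replicate 2 and MSC replicate 1. Deviations from the group mean on the log2 CPM scale in these libraries were 2.00, 0.75 and 0.49 for Hmox1, -0.53, -0.80 and -1.14 for Gclc and -0.25, -0.49 and -0.71 for Cat. At the other end, replicate 3 of each group had the most Gclc, the most Cat and the least Hmox1. Nqo1 was highest in replicate 3 of the CKD and MSC groups and in replicate 2 of the controls. The low end was not limited to Gclc and Cat on the CPM scale. Control replicate 2 also had the least Nfe2l2 of its group, and CKD replicate 2 the least Nfe2l2, Sod1 and Sod2. MSC replicate 1 had the least Nqo1, Sod1 and Sod2 of its group. The share of all genes with such an order was not computed.

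The order of Hmox1, Gclc and Cat also held for unscaled shares of counts. The libraries with the most Hmox1 also had the smallest library total and the largest TMM factor of their group (1.02, 1.11 and 1.08), and the part of these properties in the order was not tested. Over all tested genes, deviations from the group mean also correlated between the replicate 3 libraries of different groups (r of 0.21, 0.13 and 0.27 over genes, which are not independent), the only same-numbered pairs with r above 0.1, and its part in the order was not tested either. No correlation is given, since the libraries fall into 3 groups of 3. Gclc and Hmox1 had coefficients of variation of 41.0% to 70.5% and 31.3% to 121% within groups, against medians of 15.5% to 17.0% over all tested genes.

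**Figure D5:**
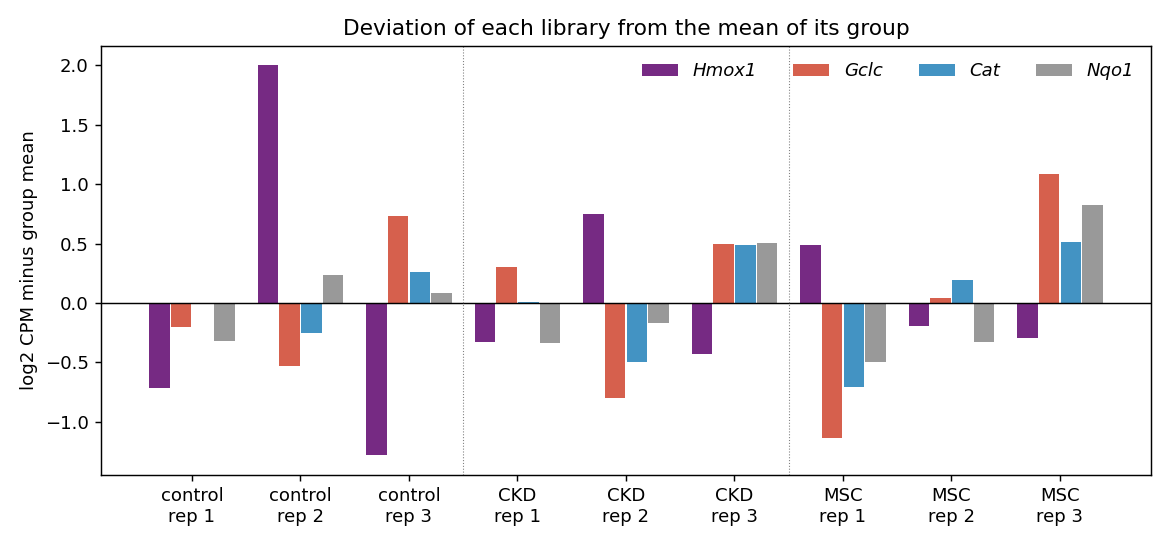
Deviation of each library from the mean of its group, in log2 CPM, for Hmox1, Gclc, Cat and Nqo1. Dotted lines part the groups, and Nfe2l2, Sod1 and Sod2 are not drawn. Hmox1 is highest where Gclc and Cat are lowest in each group, as in MSC replicate 1 (0.49 against -1.14 and -0.71).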

How the data were processed

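The authors deposited whole-number, unscaled counts for 22637 Ensembl gene identifiers in 9 columns, each matched to 1 sample by its description. Build Rnor_6.0 and the tools HISAT2, StringTie and cutadapt, with no version, come from the submitters' processing notes. A strand-specific library was prepared per the labels' protocols. The annotation, the strand setting of counting and the treatment of reads shared between genes are not given in the sources used here. Of 47357 RefSeq genes available for naming, 0 carried an Ensembl identifier, so the other Nrf2 targets, antioxidant enzymes and cell markers listed for this work were not analysed here, nor were genes of like pattern.

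The 7 genes and the lists were chosen with earlier results of these data known, and all 7 are named by rule. Genes were filtered with filterByExpr, scaled by TMM and tested with edgeR 4.0.16 (R 4.3.3) by quasi-likelihood with robust estimation in 1 fit of all 9 libraries, group as the only term. Tests were two-sided, p-values were adjusted by Benjamini-Hochberg across the 17584 genes, and the threshold was 0.05. SEs were derived from the F statistic. Log2 CPM used a prior count of 2. DESeq2 1.42.0, limma-voom (limma 3.58.1), other scalings, no filter, 2-group fits, a replicate block and leaving out each library were the alternatives. The fit was also run on simulated counts with planted changes, drawn independently from the fitted spread. These lack deviations shared between libraries, and no result here rests on that run.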

Additional observations from a re-analysis of the deposited data

How the results depend on the processing

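Of 357 folds refitted for single genes (17 alternatives for each gene and comparison), 323 kept their sign and their side of the threshold, 5 gained a call, 0 lost one and 26 changed sign. The other 3, all Hmox1 with DESeq2, kept their sign and had no p. The number of the 7 genes called in CKD against control stayed at 0, also without single libraries. In MSC against CKD it was 1 (Hmox1) in a fit of only the 2 groups compared, and without single libraries it ran from 0 to 1 (Hmox1 without control replicate 2, Sod2 without MSC replicate 3). In MSC against control it ran from 1 to 2 without single libraries, with Hmox1 added without control replicate 2 and Gclc added without MSC replicate 3. Over all genes, the 2-group fit of MSC against CKD called 16.6%, and the fits without single libraries 8.37% to 25.9%. In MSC against control the fits without single libraries called 17.2% to 32.8% of all genes. These included 22.0% without control replicate 2 and 30.7% without MSC replicate 3. Leaving out a library leaves fewer samples.

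The changes of sign were of folds that no setting called. With library size as the only scaling, CKD against control gave 0.023 for Nqo1 and 0.022 for Cat, MSC against CKD gave 0.0063 for Nfe2l2, and MSC against control gave 0.0018 for Nfe2l2 and 0.011 for Nqo1. In MSC against CKD, Nfe2l2 was also positive with RLE factors (0.0060), upper-quartile factors (0.016) and DESeq2 (0.0040), and Nqo1 with upper-quartile factors (0.0044). Without single libraries, CKD against control ran from -1.64 to 0.57 for Hmox1, -0.33 to 0.13 for Nqo1 and -0.31 to 0.18 for Cat. MSC against CKD ran from -0.077 to 0.041 for Nfe2l2 and -0.57 to 0.26 for Nqo1, and MSC against control from -0.60 to 0.17 for Nqo1 and -0.28 to 0.12 for Sod1. The log2 ratio to Nfe2l2, as MSC minus CKD, ran from -0.57 to 0.17 for Nqo1, -1.17 to 0.00056 for Gclc and -0.62 to 0.050 for Cat. The cause was not tested.

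The labels do not say that replicate numbers pair animals. Of 9 same-numbered pairs across groups, 3 had deviations correlated above 0.1 over all genes (range -0.10 to 0.27), all of them replicate 3. With the replicate block the 7 genes gave 0, 0 and 1 calls in CKD against control, MSC against CKD and MSC against control. Of all tested genes, 0%, 25.6% and 34.3% were called there. The log2 fold of Hmox1 in MSC against CKD was 1.98 with the block (edgeR adjusted p = 0.0549). Over all genes, DESeq2 called 69 in CKD against control where edgeR called 0, and MSC against CKD ran from 1499 (without MSC replicate 2) to 5506 (DESeq2) around 4010, with 1776 or 1641 when CKD replicate 1 or 3 was left out and 1961 when MSC replicate 1 was. MSC against control ran from 3077 (without MSC replicate 2) to 6997 (DESeq2) around 5677, with 3232 and 3261 without control replicate 3 and MSC replicate 1.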
